A study of Mus musculus with 7 samples.

Results

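The miR-15/16 family is a group of microRNAs (miRNAs, short RNAs that lower the output of messenger RNAs they pair with) whose guide strands begin with nearly the same bases. Its 8 members here were taken by name from the arrays, as the guide strands mmu-miR-15a-5p, mmu-miR-15b-5p, mmu-miR-16-5p, mmu-miR-195a-5p, mmu-miR-497a-5p and mmu-miR-322-5p and the passenger strands mmu-miR-15b-3p and mmu-miR-16-1-3p. They are 8 of 1881 miRNA names on the array. Signal was measured on 7 one-colour arrays of CD4+ T cells, 1 array per sample. The EAM group, a mouse model of myocarditis, had 4 arrays, with cells taken at day 6 after induction, and the LAD group, a mouse model of myocardial infarction, had 3 arrays, with cells taken at day 3. These days are those of the sample labels, and the text of the series gives them in the opposite order. In both models the cells came from the draining lymph nodes and were selected with a biotin-coupled antibody to mouse CD4 and streptavidin beads. No cells of healthy mice were among the samples, and strain, sex, age and any pooling of mice are not given in the sources used here. Model, day and slide column changed together and cannot be told apart. Nothing says that the arrays of a group came from separate mice, so p-values measure the spread between these arrays, which may be technical.

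A guide strand pairs with messenger RNAs mainly through its seed, the bases 2 to 8. The targets known for the miR-15/16 seed include the G1 cyclins D1, D3 and E1, the kinase Cdk6, the checkpoint kinase Chek1 and the survival factor Bcl2, and the family is known as a restraint on entry into the cell cycle. In mouse T cells miR-15 and miR-16 are known to limit proliferation and memory formation, and in human chronic lymphocytic leukaemia the miR-15a and miR-16-1 locus is often lost. None of these targets was measured here.

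The mature sequences of the guide strands are shown because they define the family and set how well the array can tell the members apart. They are from RefSeq (GRCm38.p6), 5′ to 3′, with the seed in capitals, and all 8 members were found there.
miR-15a-5p: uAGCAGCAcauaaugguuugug
miR-15b-5p: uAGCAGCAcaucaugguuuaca
miR-16-5p: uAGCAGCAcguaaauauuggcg
miR-195a-5p: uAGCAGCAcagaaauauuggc
miR-497a-5p: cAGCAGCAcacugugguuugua
miR-322-5p: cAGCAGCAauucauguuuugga
The 6 guide strands share the seed AGCAGCA and differ after it. Set side by side without gaps, miR-16-5p and miR-195a-5p were identical at 19 of 21 bases, miR-15a-5p and miR-15b-5p at 18 of 22, and miR-16-5p and miR-497a-5p at 11 of 22.

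The passenger strands, which come from the other side of the hairpin, have other seeds.
miR-15b-3p: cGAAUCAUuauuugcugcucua
miR-16-1-3p: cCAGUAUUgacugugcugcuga

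The members come from 4 places in the mouse genome (GRCm38.p6). miR-15a-5p lies at chr14:61632075-61632096 and the first copy of miR-16-5p at chr14:61631936-61631957, both on the minus strand within the span of Dleu2, a long non-coding RNA gene. miR-15b-5p lies at chr3:69009775-69009796 and the second copy of miR-16-5p at chr3:69009918-69009939, both on the plus strand within Smc4, a condensin gene. The passenger miR-16-1-3p, at chr14:61631894-61631915, comes from the copy in Dleu2, and miR-15b-3p, at chr3:69009813-69009834, from the hairpin in Smc4. miR-497a-5p, at chr11:70234730-70234751, and miR-195a-5p, at chr11:70235062-70235082, are neighbours on the plus strand. miR-322-5p, the mouse counterpart of human miR-424, lies at chrX:53054306-53054327 on the minus strand within C430049B03Rik. As both copies of miR-16-5p give the same sequence, the array could not say which of them the signal came from.

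The array's probes, here the longest for each guide strand on which the results turn, are shown 5′ to 3′ with the letters that pair with the seed in capitals.
miR-15a-5p probe: cacaaaccattatgTGCTGCTa
miR-15b-5p probe: tgtaaaccatgatgTGCTGC
miR-16-5p probe: cgccaatatttacgTGCT
miR-195a-5p probe: gccaatatttctgTGCTGC
miR-322-5p probe: tccaaaacatgaatTGCTGCTg
Each guide strand had 2 probes of 15 spots. The probes of miR-16-5p and miR-195a-5p had 2 mismatches with each other's miRNA, and those of miR-15a-5p and miR-15b-5p had 4. How much miR-16-5p the miR-195a-5p probes bind was not tested.

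All values below are log2 signals after background correction and quantile scaling, unless called unscaled, and differences are EAM minus LAD. A miRNA was detected on an array where the scanner software marked it so. The EAM arrays were brighter than the LAD arrays before scaling. Brightness was taken as the 75th percentile of background-subtracted signal over the 303 probes well above background on all 7 arrays. It was 798.9 to 1071 intensity units on the EAM arrays and 124.4 to 500.6 on the LAD arrays. On the EAM arrays 445 to 471 miRNAs were detected, and on the LAD arrays 311 to 380. The test covered 423 miRNAs, of which 153 (36.2%) were higher in EAM and 100 (23.6%) higher in LAD (limma, Benjamini-Hochberg adjusted p below 0.05), with a median difference of 0.31. The 6 markers of T cells and other lymphocytes were detected on all 7 arrays. The 4 stromal and vessel markers and the 3 muscle and liver markers on the array were detected on none. The myeloid marker miR-223-3p and the red cell marker miR-451a were detected on all 7 arrays, and 3 epithelial markers on all EAM arrays.

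With quantile scaling the tested members lay on both sides of 0. miR-195a-5p was 1.74-fold higher in EAM and was the 1 member of 6 tested to pass in that direction, against 36.2% of all tested miRNAs. miR-15a-5p was 1.76-fold lower in EAM and was the 1 member of 6 to pass in the other direction, against 23.6%. miR-15b-5p, miR-16-5p, miR-322-5p and miR-15b-3p did not pass. The median difference of the 6 tested members was -0.22, against 0.31 over all tested miRNAs. The filter let in miRNAs detected on all arrays of only 1 group, and the EAM arrays detected more. Among the 251 miRNAs detected on all 7 arrays, 52 were higher in EAM and 83 higher in LAD, with a median of -0.09. The 5 members among these had a median of -0.36, with 1 higher in EAM and 1 higher in LAD. For 1 of the 6, miR-195a-5p, the groups did not overlap, which held for 56.3% of all tested miRNAs. Without scaling, in contrast, all 6 tested members were above 0 and 5 passed as higher in EAM, against 70.7% of all tested miRNAs.

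**Figure D1:**
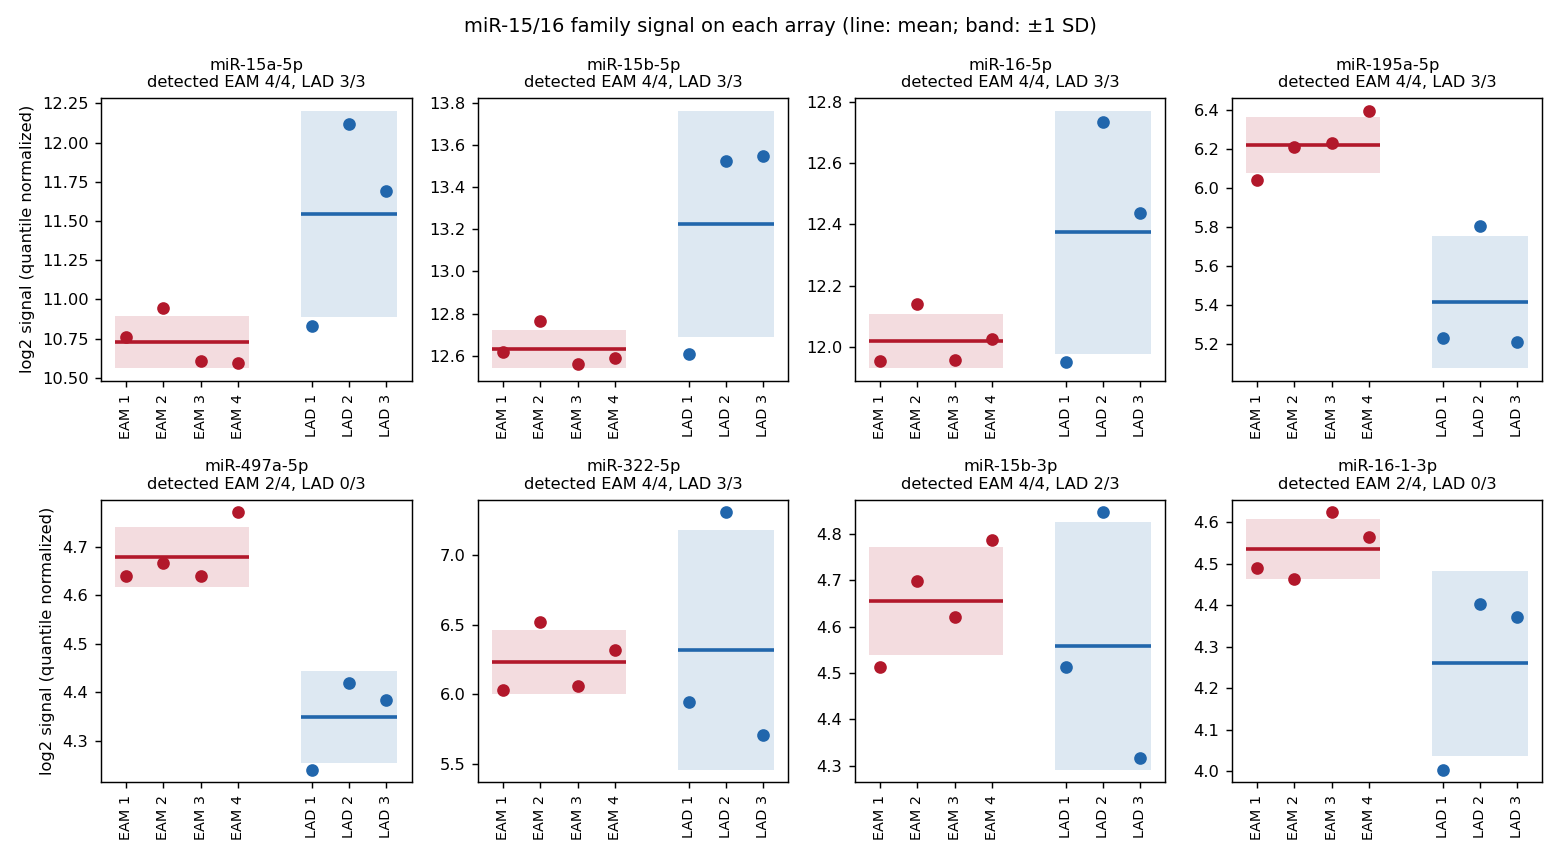
Log2 signal (quantile scaled) of each of the 8 members on the 4 EAM arrays (red) and the 3 LAD arrays (blue), with the mean as a line, ±1 SD as a band and a vertical axis of its own in each panel. miR-195a-5p was higher on every EAM array than on any LAD array, miR-15a-5p, miR-15b-5p and miR-16-5p were high on LAD arrays 2 and 3 only, and miR-497a-5p and miR-16-1-3p were detected on 2 EAM arrays and no LAD array.

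miR-15a-5p, which with miR-16 forms the locus in Dleu2, had 10.76, 10.95, 10.61 and 10.60 on the EAM arrays, against 10.83, 12.12 and 11.69 on the LAD arrays. LAD arrays 2 and 3 were above every EAM array, and LAD array 1 lay within the EAM range. The means were 10.73 ± 0.16 in EAM (SD, n = 4) and 11.55 ± 0.66 in LAD (SD, n = 3), a difference of -0.82 (standard error 0.29, 95% interval -1.49 to -0.15, limma adjusted p = 0.0413). The call was close to the threshold: without LAD array 1 the difference was -1.18 (limma adjusted p = 0.00683), and without LAD array 2 it was -0.53 (limma adjusted p = 0.0752). The call was also lost without LAD array 3 (limma adjusted p = 0.121) and without any 1 of the 4 EAM arrays (limma adjusted p 0.0664 to 0.0976).

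miR-15b-5p, from the hairpin in Smc4, had 12.62, 12.76, 12.56 and 12.59 in EAM, against 12.61, 13.52 and 13.55 in LAD. Again LAD arrays 2 and 3 were above every EAM array and LAD array 1 was not. It averaged 12.63 ± 0.09 in EAM (SD, n = 4) and 13.23 ± 0.54 in LAD (SD, n = 3). The difference of -0.59 (standard error 0.24, 95% interval -1.14 to -0.04) did not pass (limma adjusted p = 0.0591), and without LAD array 1 it was -0.90 (limma adjusted p = 0.00613).

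miR-16-5p, made from both loci, had 11.95, 12.14, 11.96 and 12.03 in EAM, against 11.95, 12.74 and 12.44 in LAD. Its order of arrays within LAD was close to that of miR-15a-5p, with LAD array 2 highest and LAD array 1 lowest. It averaged 12.02 ± 0.09 in EAM (SD, n = 4) and 12.38 ± 0.40 in LAD (SD, n = 3), a difference of -0.36 (standard error 0.19, 95% interval -0.80 to 0.09, limma adjusted p = 0.132). Without LAD array 1 the difference was -0.57 (limma adjusted p = 0.035).

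The 3 guide strands moved together from array to array. Pearson's r over the 7 arrays was 0.969 between miR-15a-5p and miR-15b-5p, 0.975 between miR-15a-5p and miR-16-5p and 0.947 between miR-15b-5p and miR-16-5p. These values describe 7 arrays of 2 groups and share the scaling of each array. The paired probes of each miRNA ran the same way, with differences of -0.82 and -0.82 for miR-15a-5p, -0.64 and -0.55 for miR-15b-5p and -0.23 and -0.48 for miR-16-5p. Both probes of each were well above background on all 7 arrays, and none of the 1680 spots of the members was saturated.

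miR-195a-5p, known in the newborn mouse heart for its part in the halt of cardiomyocyte division, had 6.04, 6.21, 6.23 and 6.39 on the EAM arrays, against 5.23, 5.80 and 5.21 on the LAD arrays. Every EAM array was above every LAD array, and LAD array 2 came nearest to the EAM range. It averaged 6.22 ± 0.14 in EAM (SD, n = 4) and 5.41 ± 0.34 in LAD (SD, n = 3), a difference of 0.80 (standard error 0.18, 95% interval 0.38 to 1.22, limma adjusted p = 0.0142). Without EAM array 4 the difference was 0.74 and missed the threshold (limma adjusted p = 0.0511). Its longer probe, well above background on all 7 arrays, gave a difference of 0.97. The shorter probe gave 0.63 and was well above background on 1 array. In the scanner software's total signal per miRNA, in intensity units without scaling, it had 50.5, 61.0, 51.9 and 72.5 in EAM, against 5.05, 19.4 and 3.72 in LAD.

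miR-497a-5p, the neighbour of miR-195a-5p on chromosome 11, was close to the background. It was detected on EAM arrays 2 and 4 and on no LAD array, and so was not tested. Its values were 4.64, 4.67, 4.64 and 4.77 in EAM, against 4.24, 4.42 and 4.38 in LAD, so the groups were apart. Without a filter the same held for 713 of 1881 names. Neither of its probes was well above background on any array, and no fold is given. On the arrays where it was detected, its total signal was 3.55 intensity units on EAM array 2 and 4.52 on EAM array 4.

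miR-322-5p, known from mouse muscle cells for its part in leaving the cell cycle, had 6.03, 6.52, 6.06 and 6.32 in EAM, against 5.95, 7.31 and 5.71 in LAD. LAD array 2 was above every EAM array and LAD arrays 1 and 3 were below every one. It averaged 6.23 ± 0.23 in EAM (SD, n = 4) and 6.32 ± 0.86 in LAD (SD, n = 3), a difference of -0.09 (standard error 0.37, 95% interval -0.94 to 0.77, limma adjusted p = 0.831). Without LAD array 2 the difference was 0.41 (limma adjusted p = 0.0522). The interval is too wide to say that the groups had equal levels.

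Of the passenger strands, miR-15b-3p was detected on all 4 EAM arrays and on LAD arrays 1 and 2. It had 4.51, 4.70, 4.62 and 4.79 in EAM, against 4.51, 4.85 and 4.32 in LAD, with LAD array 2 highest of all and LAD array 3 lowest. The difference of 0.10 (standard error 0.16, 95% interval -0.27 to 0.46) did not pass (limma adjusted p = 0.594). Its 4 probes disagreed: those of 19 and 20 bases gave -0.09 and -0.16 and were well above background on 0 arrays, and those of 21 and 22 bases gave 0.34 and 0.37 and were well above background on 1 and 5 arrays. With quantile scaling its Pearson's r with miR-15b-5p, the guide of the same hairpin, was -0.117 over the 7 arrays. In unscaled total signal it had 11.1, 12.3, 9.16 and 13.1 intensity units in EAM, against 1.50 and 7.14 on LAD arrays 1 and 2, and was listed at 0.1 on LAD array 3, where it was not detected. miR-15b-5p had 5051, 5736, 4523 and 6204 in EAM, against 673, 3009 and 508 in LAD, the same order of arrays in each group. That was also the order of array brightness before scaling, so the match does not bear on the shared hairpin. miR-16-1-3p was detected on EAM arrays 1 and 3 and on no LAD array and was not tested. It had 4.49, 4.46, 4.62 and 4.56 in EAM, against 4.00, 4.40 and 4.37 in LAD, with no probe well above background on any array.

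The direction of the 3 guide strands miR-15a-5p, miR-15b-5p and miR-16-5p depended on the scaling. Unscaled, miR-16-5p had 12.45, 12.77, 12.37 and 12.85 in EAM, against 9.72, 12.01 and 9.27 in LAD, a difference of 2.28 (limma adjusted p = 0.0101). miR-15b-5p had 13.12, 13.30, 12.98 and 13.42 in EAM, against 10.58, 12.75 and 10.19 in LAD, a difference of 2.03 (limma adjusted p = 0.0118). Every LAD array was below every EAM array for both. miR-15a-5p had 11.24, 11.58, 10.95 and 11.35 in EAM, against 8.75, 11.40 and 8.59 in LAD, a difference of 1.70 (limma adjusted p = 0.0413). LAD array 2, the brightest of the LAD arrays, lay within the EAM range for miR-15a-5p.

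miR-195a-5p had unscaled values of 6.49, 6.57, 6.35 and 6.72 in EAM, against 4.67, 5.65 and 4.45 in LAD, a difference of 1.61 (limma adjusted p = 0.00393). The unscaled miR-322-5p had 6.62, 6.99, 6.16 and 6.65 in EAM, against 5.21, 7.06 and 4.85 in LAD, and its difference of 0.90 did not pass (limma adjusted p = 0.151). miR-195a-5p kept its direction and its separation of the groups, while LAD array 2 was again the highest of all for miR-322-5p. Without scaling the median of all tested miRNAs was 1.17, and 299 (70.7%) were higher in EAM and 2 (0.473%) higher in LAD. The members that passed as higher in EAM without scaling were 5 of 6, all but miR-322-5p, with miR-15b-3p at 0.70 (limma adjusted p = 0.0402). The last of these, miR-15b-3p, was in the test only because every EAM array detected it, so the filter favoured that direction.

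**Figure D2:**
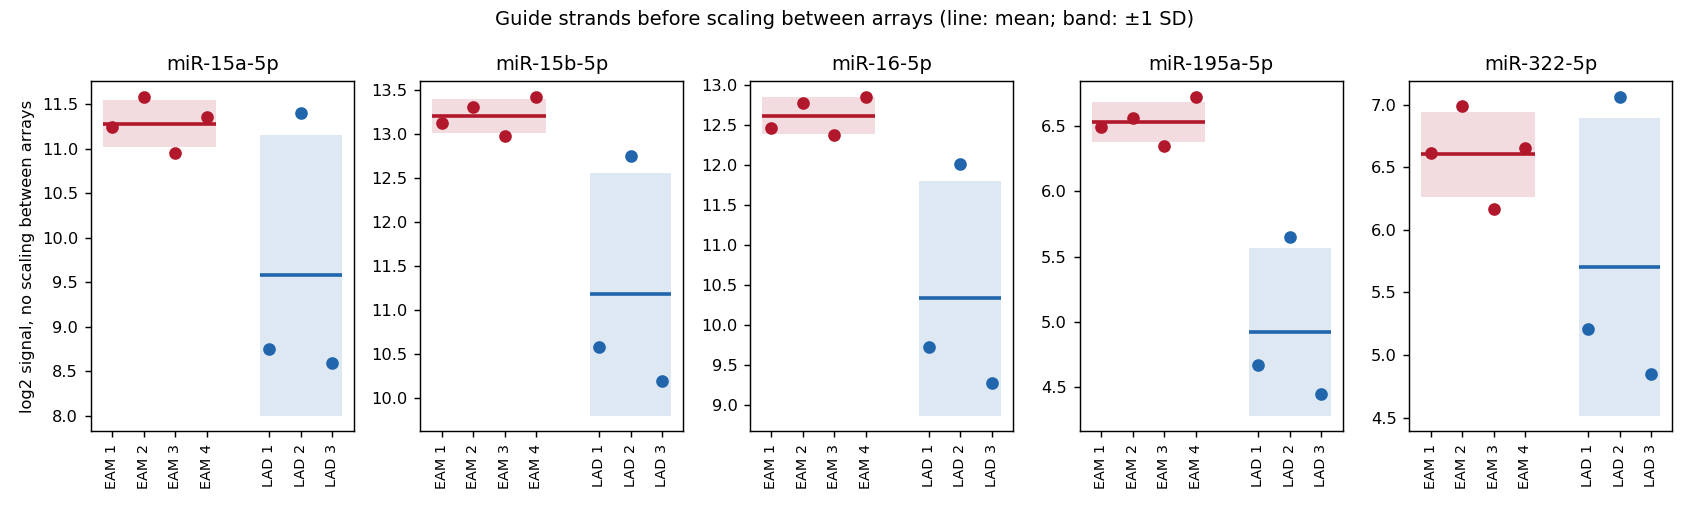
Unscaled log2 signal of the 5 guide strands detected on all 7 arrays, with EAM arrays in red and LAD arrays in blue, the mean as a line, ±1 SD as a band and a vertical axis of its own in each panel. For miR-15b-5p, miR-16-5p and miR-195a-5p every LAD array was below every EAM array, and LAD array 2 was the highest LAD array in all 5 panels.

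Since scaling moved the median of all miRNAs, the members were also set against that median. miR-195a-5p was 0.49 above it with quantile scaling and 0.44 above it without scaling. It was above it in 23 of 23 sets of processing choices, though those that change only the filter or the test keep its own difference. For miR-15a-5p the difference minus that median was -1.13 with quantile scaling and 0.53 without scaling. It was -0.91 and 0.86 for miR-15b-5p, and -0.67 and 1.11 for miR-16-5p, so these 3 changed sides. For miR-322-5p it was -0.40 with quantile scaling and -0.27 without. The median itself depended on the filter, and was -0.09 over the miRNAs detected on all 7 arrays, with quantile scaling. Against it miR-322-5p was at 0.004, miR-16-5p at -0.26, miR-15b-5p at -0.50, miR-15a-5p at -0.73 and miR-195a-5p at 0.89.

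The calls also differed under other scalings. The 75th percentile of detected probes, taken as the scale, left 81 miRNAs (19.1%) higher in EAM and 116 (27.4%) higher in LAD, and miR-195a-5p was the 1 member to pass. The 75th percentile of all probes left 212 (50.1%) higher in EAM and 91 (21.5%) higher in LAD, and miR-16-5p and miR-195a-5p passed as higher in EAM. Median centring left 264 (62.4%) higher in EAM and 58 (13.7%) higher in LAD, and miR-15b-5p, miR-16-5p and miR-195a-5p passed as higher in EAM. Without a filter on dim miRNAs, 12.7% of 1881 names were higher in EAM, among them miR-195a-5p and miR-497a-5p. No probe of miR-497a-5p was well above background on any array. Without LAD array 1, 15.8% of 424 tested miRNAs were higher in LAD, among them miR-15a-5p, miR-15b-5p and miR-16-5p.

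**Figure D3:**
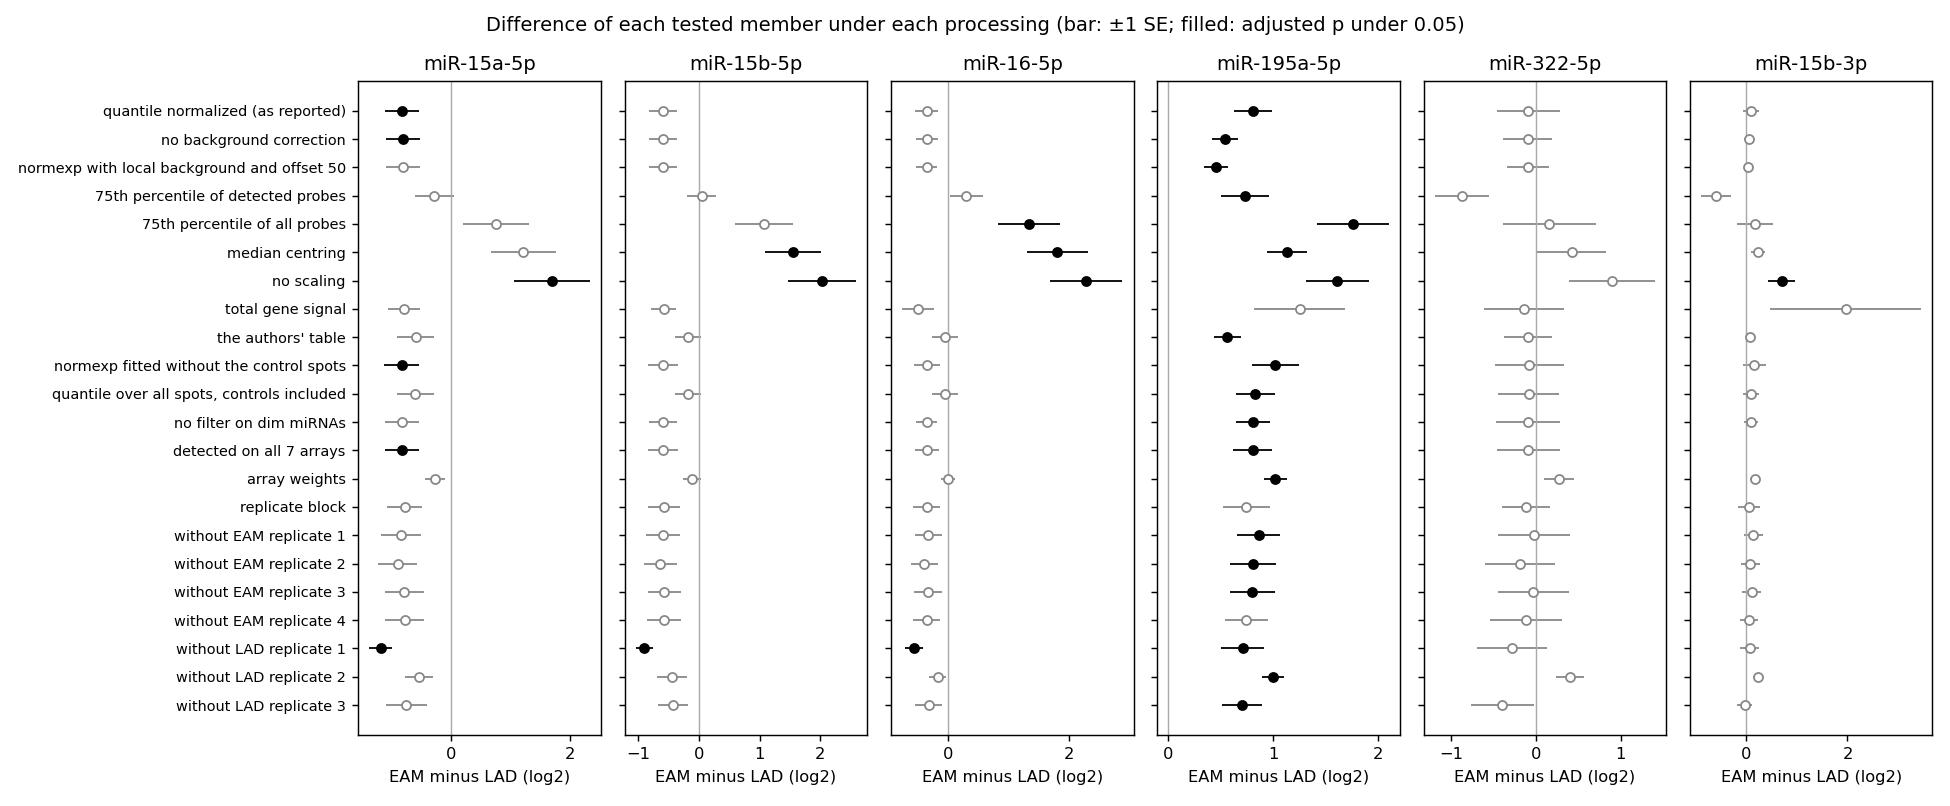
EAM minus LAD difference (log2) of each of the 6 tested members under each set of processing choices, with ±1 standard error as a bar, filled points for a limma adjusted p below 0.05 and a horizontal axis of its own in each panel. The points of miR-195a-5p lie to the right of 0 throughout, between 0.45 and 1.76, while those of miR-15a-5p, miR-15b-5p and miR-16-5p lie on both sides of 0.

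A difference between 2 members on the same array is free of any log2 shift common to the whole array, though not of effects that depend on how bright a member is. Such differences were compared between the groups for the 10 pairs of guide strands detected on all 7 arrays. With 4 against 3 arrays the smallest two-sided exact permutation p is 0.0571 (adjusted over the 10 pairs 0.0952), so no pair could pass. Of the pairs, 0 had an unadjusted p below 0.05, and 6 did not overlap between the groups. These 6 included every pair with miR-195a-5p, whose own groups did not overlap, so they are not separate results. Of all single tested miRNAs 56.3% did not overlap, and the share over all pairs of tested miRNAs was not computed. What follows gives the sizes.

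miR-15a-5p and miR-16-5p share the locus in Dleu2. Their within-array difference was -1.19, -1.19, -1.35 and -1.43 in EAM, against -1.12, -0.62 and -0.74 in LAD. Every EAM array was below every LAD array, although LAD array 1 was only just so. It averaged -1.29 ± 0.12 in EAM (SD, n = 4) and -0.83 ± 0.26 in LAD (SD, n = 3), so that miR-15a-5p was lower relative to miR-16-5p in EAM by -0.46 (two-sided exact permutation p = 0.0571). Scalings that only shift an array cannot change such a difference, which leaves 9 distinct sets of values among those with other background correction, scaling or summary. Over these it lay between -0.58 and -0.29, and the groups did not overlap in 9 of 9. Leaving out 1 array at a time gave -0.61 to -0.36.

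miR-15b-5p against miR-16-5p, the guides in Smc4, differed by 0.67, 0.62, 0.60 and 0.56 in EAM, against 0.66, 0.79 and 1.11 in LAD, and the groups overlapped. The change between groups was -0.24 (two-sided exact permutation p = 0.114). It was below 0 in 9 of 9 sets of values (-0.26 to -0.08), and the groups were apart in 4. For miR-15a-5p against miR-15b-5p the change was -0.23 (two-sided exact permutation p = 0.114), below 0 in 9 of 9 (-0.41 to -0.21) and apart in 2.

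miR-16-5p against miR-195a-5p, the pair of nearest sequence, differed by 5.91, 5.93, 5.73 and 5.63 in EAM, against 6.72, 6.93 and 7.23 in LAD. All LAD arrays were higher, and the change was -1.16 (two-sided exact permutation p = 0.0571). It ran from -1.75 to 0.67 over the 9 sets of values, above 0 in 1 of them (median centred or unscaled), so its direction was not the same under every processing. Likewise miR-15a-5p against miR-195a-5p changed by -1.62, with a range of -2.04 to 0.09, and miR-15b-5p against miR-195a-5p by -1.40, with a range of -1.83 to 0.42.

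miR-195a-5p against miR-322-5p differed by 0.01, -0.31, 0.16 and 0.07 in EAM, against -0.72, -1.50 and -0.50 in LAD. The EAM arrays were all higher, and the change of 0.89 (two-sided exact permutation p = 0.0571) was above 0 in 9 of 9 sets of values, with the groups apart in 8. Of the other pairs with miR-322-5p, that with miR-15a-5p changed by -0.73 and did not overlap, and those with miR-15b-5p and miR-16-5p changed by -0.51 and -0.27 and overlapped (two-sided exact permutation p = 0.343 and 0.571). All 3 turned with the processing, with ranges of -0.75 to 0.80, -0.52 to 1.13 and -0.36 to 1.38. Scaled to a 75th percentile, median centred or unscaled, all 3 changes were above 0 and the groups were apart.

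**Figure D4:**
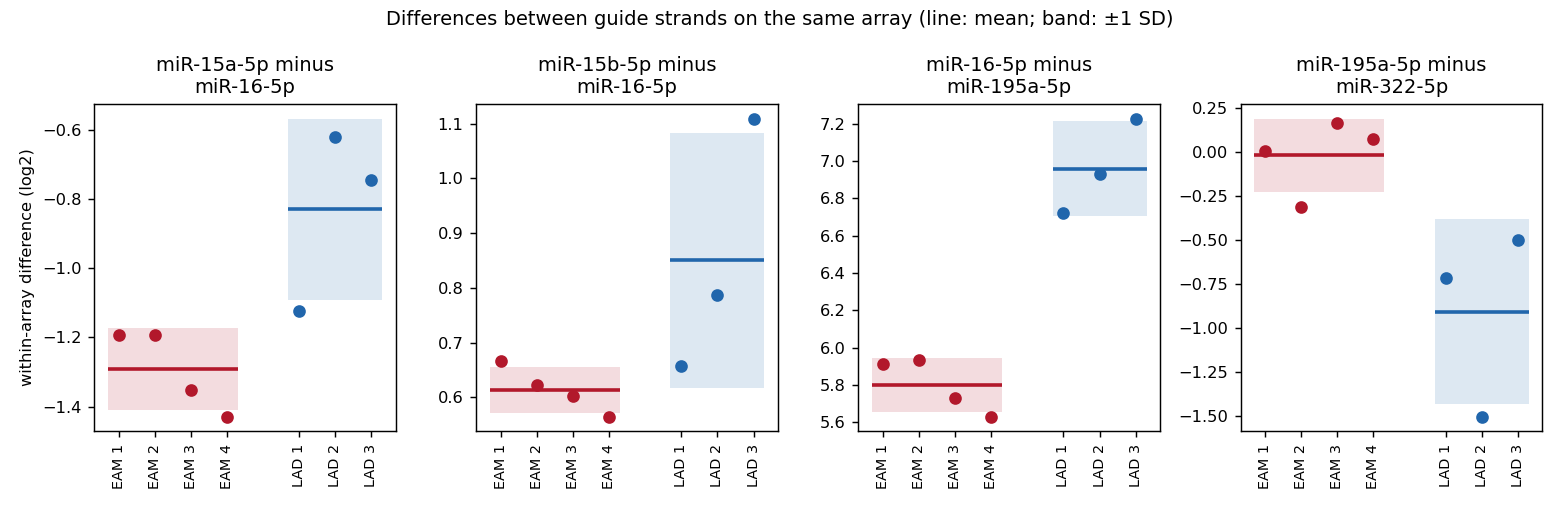
Log2 difference between 2 guide strands on the same array for 4 of the 10 pairs, with EAM arrays in red and LAD arrays in blue, the mean as a line, ±1 SD as a band and a vertical axis of its own in each panel. The groups do not overlap for miR-15a-5p minus miR-16-5p, miR-16-5p minus miR-195a-5p and miR-195a-5p minus miR-322-5p, and overlap for miR-15b-5p minus miR-16-5p.

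The seed was looked for in the other names on the array. Of the 1881 names, 1608 had a RefSeq sequence, and 10 of these had AGCAGCA at bases 2 to 8. The 4 outside the members, miR-195b, miR-6342, miR-6353 and miR-6419, were detected on 0 arrays, with values between 3.98 and 4.36. The other names, with no RefSeq sequence in the table used, were not checked for the seed.

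The other arms and cluster neighbours of the members were mostly undetected. Of 15 such names on the array, 1 was tested. miR-16-2-3p, the passenger of the miR-16 hairpin in Smc4, had 4.92, 5.02, 5.11 and 5.24 in EAM, against 4.75, 4.84 and 4.79 in LAD, and was detected on 4 EAM arrays and LAD array 2. All EAM arrays were higher, but the difference of 0.28 did not pass (limma adjusted p = 0.0801). The miR-15a-3p, miR-195a-3p, miR-497a-3p and miR-322-3p arms and miR-503-5p, which shares a transcript with miR-322 and has the seed AGCAGCG, were detected on no array. miR-450a-5p, from the same cluster on chromosome X, was detected on EAM array 2 and LAD array 2, the arrays with the highest miR-322-5p of each group. Its values there were 4.86 in EAM and 5.34 in LAD. LAD array 2 was also the brightest LAD array, with the most detected miRNAs of that group (380), and a link to miR-322-5p was not tested. The neighbours miR-503-3p, miR-351-5p, miR-351-3p, miR-542-3p, miR-542-5p and miR-450b-5p were detected on no array.

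Other miRNAs of the cell cycle were compared by their counts. The guide strands of the miR-17 cluster, which drive lymphocyte proliferation, had 6 of 6 members tested. With quantile scaling 0 were higher in EAM, against 36.2% of all tested miRNAs, and 1 was higher in LAD, against 23.6%, with a median difference of -0.51 against 0.31 over all tested miRNAs. That 1 was miR-19b-3p, with 10.97, 11.03, 11.10 and 11.12 in EAM, against 11.28, 12.16 and 11.88 in LAD (difference -0.72, limma adjusted p = 0.0236). miR-17-5p, with a difference of 0.46 (limma adjusted p = 0.365), ran against the rest of the list. LAD array 2 was the highest array for each of the 6. Among miRNAs detected on all 7 arrays, the median was -0.54 for 5 of these guides and -0.09 over all 251. The list too depended on the scaling. Without scaling 3 of 6 were higher in EAM, against 70.7% of all tested miRNAs, and 0 higher in LAD, against 0.473%. The median was then 1.60, against 1.17 over all tested miRNAs. Leaving out LAD array 1 gave 4 higher in LAD, against 15.8% of all tested miRNAs.

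The 12 other miRNAs that restrain the cell cycle were the let-7 family with miR-98, miR-34a-5p and the miR-26 guides. With quantile scaling 4 of them were higher in EAM, near the 36.2% of all tested miRNAs. Higher in LAD were 0, against 23.6%, and the median difference was 0.32. The 4 were let-7b-5p (0.45, limma adjusted p = 0.0287), let-7c-5p (0.48, limma adjusted p = 0.0427), let-7g-5p (0.48, limma adjusted p = 0.0204) and miR-98-5p (1.40, limma adjusted p = 0.0187). miR-34a-5p, a target of p53, had a difference of -0.53 (limma adjusted p = 0.365), against the direction of the list. Among miRNAs detected on all 7 arrays, 3 of 11 in the list were higher in EAM, against 52 of 251. The count was 11 of 12 without scaling, with median centring and with the 75th percentile of all probes. The shares of all tested miRNAs higher in EAM there were 70.7%, 62.4% and 50.1%. It was 10 in the authors' values, against 149 of 423. With the replicate number as a block and with a test of unequal variances it was 0, as over all 423. It was also 0 without EAM array 3, against 47 of 437, and without EAM array 4, against 34 of 428. The let-7 members differ from each other by few bases, so their probes may share signal, which was not tested.

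**Figure D5:**
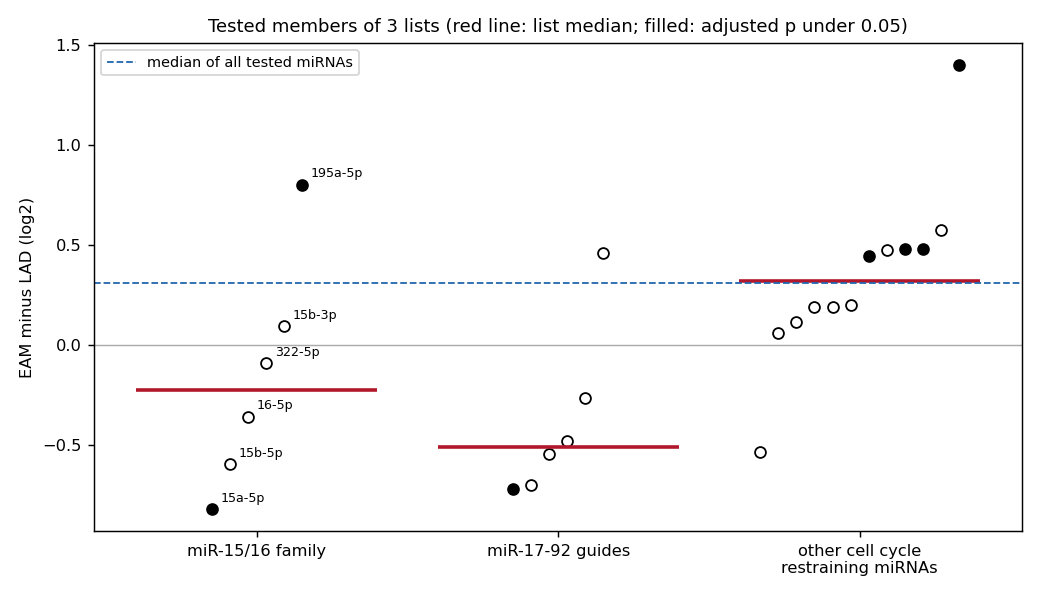
EAM minus LAD difference (log2, quantile scaled) of the tested members of 3 lists, 6 of the miR-15/16 family, 6 guides of the miR-17 cluster and 12 other miRNAs that restrain the cell cycle, with the list median as a red line, filled points for a limma adjusted p below 0.05 and the median of all 423 tested miRNAs (0.31) as a dashed line. The medians were -0.22, -0.51 and 0.32, and 2, 1 and 4 members passed.

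The miRNAs most like the members over the 7 arrays were taken as the 3 with the highest Pearson's r for each. They were miR-128-3p (0.981), miR-181a-1-3p (0.98) and miR-92a-3p (0.979) for miR-15a-5p, and miR-92a-3p (0.99), miR-181b-5p (0.964) and miR-128-3p (0.96) for miR-15b-5p. For miR-16-5p they were miR-128-3p (0.991), miR-181a-1-3p (0.979) and miR-20b-5p (0.975). miR-128-3p, first for miR-15a-5p and miR-16-5p, had 6.87, 7.32, 6.87 and 7.17 in EAM, against 6.91, 11.05 and 9.60 in LAD, so that LAD array 1 again lay within the EAM range. For miR-195a-5p the nearest were miR-671-5p (0.998), miR-378c (0.992) and miR-466n-3p (0.992), and for miR-322-5p they were miR-132-3p (0.986), miR-106b-5p (0.981) and miR-139-3p (0.963). With 7 arrays of 2 groups and 423 miRNAs, high values of r are common, and these are given as a description.

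Markers of other cells moved with the groups in part. Sums here are the log2 of summed signals. That of the 6 lymphocyte markers was 15.74 to 15.88 in EAM and 15.38 to 15.58 in LAD. It was set mostly by the brightest, miR-142a-3p (means 15.25 in EAM and 14.89 in LAD), and the markers disagreed. With quantile scaling 3 of the 6 were higher in EAM, against 36.2% of all tested miRNAs, and 1 higher in LAD, against 23.6%. The differences were 0.35 for miR-142a-3p, 1.41 for miR-150-5p and 1.12 for miR-155-5p, against -3.18 for miR-181a-5p. Of the 2 myeloid markers, miR-223-3p was detected on all arrays and miR-223-5p on none, and their sum was 6.65 to 6.93 in EAM and 7.81 to 9.23 in LAD. miR-223-3p was highest on LAD array 1 (9.19) and had 7.78 and 7.71 on LAD arrays 2 and 3, where the miR-15 and miR-16 guides were high. It was higher in LAD (difference -1.64, limma adjusted p = 0.0127), against 23.6% of all tested miRNAs. Of the 2 red cell markers, miR-451a was detected on all arrays and miR-144-3p on none, with a sum of 6.80 to 7.31 in EAM and 6.53 to 7.92 in LAD. Of the 4 epithelial markers, miR-205-5p was detected on no array. miR-200b-3p, miR-200c-3p and miR-203-3p were detected on all 4 EAM arrays and on 1, 1 and 0 LAD arrays. Of these 3, miR-200b-3p (0.47, limma adjusted p = 0.021) and miR-203-3p (1.10, limma adjusted p = 0.00916) were higher in EAM, against 36.2% of all tested miRNAs. All 3 were in the test only because every EAM array detected them, so the filter favoured that direction. The sum of the 4 was 6.90 to 7.23 in EAM and 6.41 to 6.64 in LAD. The part of other cells in the differences of the members was not tested, and in such bulk samples fewer cells of a type and less RNA per cell cannot be told apart.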

How the data were processed

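CD4+ T cells of 4 EAM and 3 LAD samples were each measured on 1 array. Per the labels' protocols, Cy3 was attached to the 3′ ends of 100 ng of total RNA. The arrays were one-colour. Per the file headers, Agilent Feature Extraction 10.7.3.1 read the arrays (probe positions mm9), and the deposited files give intensity per spot and per miRNA, unscaled between arrays, while other columns are marks of 0 or 1 for detected, saturated or outlying spots. The values that the authors processed are deposited in log2, with a row per miRNA name; the submitters' processing notes name RMA without version or role. Across the 423 tested miRNAs the authors' values were closest to quantile scaling without background correction (90.8% of values within 0.1).

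From the mean spot signal (58594 spots per array), background was corrected with limma's normexp fitted on all spots (offset 0). Control spots were then left out, arrays were quantile scaled, log2 values were taken, spots marked as outliers were dropped, and each miRNA was summarised from the median of each probe's spots by median polish. Those miRNAs that were marked as detected on all EAM arrays or on all LAD arrays were tested with limma 3.58.1 (lmFit, eBayes; R 4.3.3, data.table version 1.17.8), Benjamini-Hochberg adjusted over all 423 at 0.05. The fit assumes that both groups vary alike, and LAD varied more. Pairs of members were compared by exact permutation over 35 splits. The number of arrays limits the precision.

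Members and lists were chosen with earlier results of these data known. The text names all members, list members that passed or went against their list, and the 3 miRNAs nearest in pattern. Alternatives were other background corrections, scalings, summaries, filters and variance models, the authors' table, a replicate block and leaving out each array. Of these, 3, marked below, were chosen after seeing the data. The miRNAs miR-486-5p and miR-126-3p of the marker lists were not found on the array under those names.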

Additional observations from a re-analysis of the deposited data

How the results depend on the processing

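miR-195a-5p had a positive difference under 22 of 22 alternatives (0.45 to 1.76, limma adjusted p 6.07e-05 to 0.0947). Alternatives that changed only the filter or the test kept the reported difference, so its sign could not change there. It no longer passed with total gene signal (1.25, limma adjusted p = 0.0536), without EAM array 4 (0.74, limma adjusted p = 0.0511), with a replicate block (0.74, limma adjusted p = 0.0947) and with an unmoderated test of unequal variances (adjusted p = 0.172), an alternative chosen after seeing the data. miR-15a-5p passed in 5 of 23 fits in the direction of LAD. With the 75th percentile of all probes, median centring and no scaling, differences turned to EAM: 0.756, 1.22 and 1.7 for miR-15a-5p, 1.07, 1.55 and 2.03 for miR-15b-5p, 1.33, 1.8 and 2.28 for miR-16-5p and 0.162, 0.423 and 0.9 for miR-322-5p, and the median of the tested members was 0.914, 1.18 and 1.65 (reported -0.222). With the 75th percentile of detected probes, miR-15b-5p was at 0.0423, miR-16-5p at 0.297 and miR-15b-3p at -0.598. miR-322-5p was at 0.276 with array weights, whose fit stopped before its tolerance was reached, and leaving out 1 array at a time gave -0.393 to 0.406 for it (highest without LAD array 2) and -0.0243 to 0.24 for miR-15b-3p (lowest without LAD array 3). Array weights also gave -0.266 for miR-15a-5p, -0.114 for miR-15b-5p, -0.0065 for miR-16-5p and a median of 0.0863. The authors' values gave -0.587, -0.182 and -0.0578 for these 3 and a median of -0.0758, close to quantile scaling over all spots with controls (-0.594, -0.18, -0.0556 and -0.0685). The cause of these shifts was not tested. Members higher in EAM (reported 1) numbered 2 without a filter and with the 75th percentile of all probes, 3 with median centring, 5 without scaling, and 0 with total gene signal, the replicate block and unequal variances. Members higher in LAD (reported 1) numbered 0 with an offset of 50, either 75th percentile, no scaling, median centring, the authors' table, total gene signal, no filter, array weights, the replicate block, unequal variances and quantile scaling over all spots with controls (chosen after seeing the data). Leaving out 1 array at a time gave 0 to 1 members higher in EAM, 0 to 3 higher in LAD (3 without LAD array 1, 0 without any of the others) and a median of -0.421 to 0.0327. The pairs of guide strands that passed numbered 0 throughout, which the design fixes. Deviations of same-numbered arrays correlated at 0.198, -0.161 and -0.192, values too few to settle whether replicate numbers paired the samples. With the replicate block limma called 0 of 423 miRNAs, with 180 at an unadjusted p below 0.05, 2 of them members. The third alternative chosen after seeing the data, normexp fitted without control spots, kept both counts at 1.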

Other observations

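miR-497b, named after the miR-497 hairpin, was detected on EAM arrays 1 and 2 only, with 7.24, 7.15, 4.76 and 3.99 on the EAM arrays, against 3.97, 4.25 and 3.97 on the LAD arrays, and so was not tested. RefSeq (GRCm38.p6) places it at chr11:70234763-70234786 on the minus strand, opposite miR-497a-3p at chr11:70234770-70234790 on the plus strand, which was detected on no array.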
